A study of Mus musculus with 7 samples.

Results

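The fatty acid binding proteins (FABPs) described here are 4 genes, Fabp3, Fabp4, Fabp5 and Fabp7, of the 21965 genes counted in the contused mouse spinal cord. They were selected by family name, and the family was chosen because Fabp7 was much higher in the knockout libraries, so the genotype difference of the 4 genes is given as a description without a test. RNASeq libraries were made from the injury epicenter of the spinal cord 3 days after a T9 contusion (dpi 3; impact force 50 kdyn). The knockout mice, labelled Arntl knockout and called Bmal1-/- here, were 2 females and 1 male (n = 3), and the wild type (WT) mice were 2 females and 2 males (n = 4), with 1 library per mouse. All were young adults on a C57BL/6 background, and all were injured, so no group shows the uninjured cord. Bmal1-/- is a germline deletion that removes the clock activator BMAL1 from every cell throughout life. Per the study's methods, the knockout mice were bred from heterozygotes, most WT mice were bought, and allocation to groups was not random.

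FABPs are small cytosolic proteins that carry long-chain fatty acids to membranes, enzymes and nuclear receptors. Fabp7, the brain-type protein, marks radial glia and astrocytes. Fabp5, the epidermal type, is used by many cells including macrophages and endothelium, Fabp3, the heart type, by muscle and mature neurons, and Fabp4, the adipocyte type, by fat cells, macrophages and capillary endothelium. In the circadian clock, BMAL1 activates the genes of the REV-ERB repressors, Nr1d1 and Nr1d2, and Fabp7 is a known REV-ERB target in astroglia.

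The 4 genes are paralogs that can be told apart by sequence, which matters for reads counted per gene. The starts of their coding sequences, read from the GENCODE transcripts and aligned, are shown with capitals for the bases that all 4 share.
Fabp3: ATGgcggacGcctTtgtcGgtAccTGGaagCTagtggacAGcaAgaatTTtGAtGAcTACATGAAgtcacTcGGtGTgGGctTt
Fabp4: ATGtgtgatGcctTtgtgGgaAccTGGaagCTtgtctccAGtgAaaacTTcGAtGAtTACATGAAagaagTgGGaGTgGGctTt
Fabp5: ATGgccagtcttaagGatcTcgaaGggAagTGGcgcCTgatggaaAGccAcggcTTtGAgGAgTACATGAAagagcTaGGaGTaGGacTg
Fabp7: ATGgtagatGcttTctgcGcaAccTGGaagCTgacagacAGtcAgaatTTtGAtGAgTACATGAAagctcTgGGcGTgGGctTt

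Over the whole coding sequences, 399 to 408 bases long, Fabp3 and Fabp7 were the most alike pair with 66.7% identical bases, and Fabp5 and Fabp7 the least with 54.6%. The longest identical run in any pair was 20 bases, and no stretch of 75 bases, the read length, occurred in more than 1 of the 4. For Fabp4 and Fabp7 no such stretch occurred in a transcript of any other gene either. For Fabp5, 3.03% of the stretches were also found in the processed pseudogenes Gm14328 and Gm6166. Fabp3 was the least certain, since 26.0% of its stretches also lay in its pseudogene Fabp3-ps1 or in Zcchc17 and Gm10570, which overlap it on the opposite strand.

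On GRCm38, Fabp7 (ENSMUSG00000019874) lies on the plus strand of chromosome 10 from 57784881 to 57788450, and Fabp3 (ENSMUSG00000028773) on the plus strand of chromosome 4 from 130308595 to 130315463. Fabp5 (ENSMUSG00000027533) and Fabp4 (ENSMUSG00000062515) both lie on chromosome 3, from 10012548 to 10016607 on the plus strand and from 10204088 to 10208576 on the minus strand, with Pmp2 and Fabp9 between them. Each of the 4 is read from 4 exons in its principal coding transcript.

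The Fabp7 promoter is shown because REV-ERB and ROR proteins bind AGGTCA half-sites. The 208 bases of the RefSeq promoter that lie before the GENCODE start, chr10:57784673-57784880 of GRCm38.p6 on the plus strand, are printed with the half-site, read there on the opposite strand, in capitals.
Fabp7 promoter: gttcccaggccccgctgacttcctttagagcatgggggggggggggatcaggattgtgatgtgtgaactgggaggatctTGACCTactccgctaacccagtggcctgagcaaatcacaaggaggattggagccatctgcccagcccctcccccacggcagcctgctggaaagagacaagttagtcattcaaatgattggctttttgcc

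The half-site lay 124 to 129 bases before the GENCODE start, where the printed stretch ends, and 166 to 171 bases before the RefSeq start, which is farther downstream. Motifs were searched on both strands over the whole 300 bases of each RefSeq promoter. AGGTCA on either strand is common, being present in 16.3% of the 32851 RefSeq promoters of 300 bases. Its presence is given as a description, and binding was not tested. The E-box CACGTG, the letters that BMAL1 binds with its partner CLOCK, was not in the 300 bases of Fabp7 and was present in 7.15% of promoters. The D-box TTATGTAA was not in it either and was present in 0.938%. Of the members, Fabp7 and Fabp3 had a promoter in the table used, and the 300 bases of Fabp3 held none of the 3 motifs on either strand.

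The libraries held 38529644 to 44096737 counts. CPM are counts scaled to a library size of 1e6 after TMM normalization, and a gene was called where edgeR's quasi-likelihood test gave a Benjamini-Hochberg adjusted p under 0.05 over the 15743 genes that passed the low-count filter. Arntl, the targeted gene, was counted higher in the mice labelled Bmal1-/- (22.5 to 24.2 CPM) than in WT (11.9 to 15.3 CPM). This is not the direction of the label, but a count over the whole gene cannot show whether part of it is deleted. An antisense gene also overlaps Arntl, so the genotypes are named by their labels. Nr1d1 and Nr1d2, which BMAL1 activates, were lower in the same libraries (log2 fold changes -2.51 and -2.68). WT replicate 3 lay apart from the other 6 libraries on the first principal component (47.99, against -35.88 to 8.069).

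All 4 members passed the low-count filter. The same cut-off was passed by 1 of the 4, Fabp7, where 1.57% of all tested genes passed it (0.654% higher and 0.915% lower in the mice labelled Bmal1-/-), and nothing is read from this since the family was chosen on that difference. Likewise, the libraries of both genotypes did not overlap for 1 of the 4, again Fabp7, against 26.9% of tested genes.

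Fabp7 was counted at 1071, 993 and 822 CPM in the mice labelled Bmal1-/- (replicates 1 to 3). In WT replicates 1 to 4 it was counted at 169.5, 168.9, 204.9 and 150.2 CPM. Every mouse labelled Bmal1-/- was thus far above every WT library, and the lowest of the former, the male, still lay above the highest WT value. The means were 962 ± 127 CPM (SD, n = 3) and 173 ± 22.8 CPM (SD, n = 4), a fitted log2 fold change of 2.47 (SE 0.14), or 5.55-fold. Of all tested genes, 8 had a larger log2 fold change. With any library left out it stayed between 2.39 and 2.57. The counts behind these levels ran from 5955 to 42778, so counting error was small beside the spread between mice.

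Fabp5, its most abundant relative, did not follow it. Its level was 394, 372 and 317 CPM in the mice labelled Bmal1-/-. In WT it was 362, 356, 619 and 539 CPM. The genotypes overlapped, because the female WT libraries lay at the level of the mice labelled Bmal1-/- while both male WT libraries lay well above them. The log2 fold change was -0.38 (SE 0.22), and -0.22 without WT replicate 3.

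Fabp3 was counted at 22.2, 20.5 and 23.4 CPM in the mice labelled Bmal1-/- and at 20.3, 21.6, 13.9 and 16.5 CPM in WT. Here the male WT libraries were the lowest and the other 5 lay close together. The log2 fold change was 0.29 (SE 0.15), and 0.18 without WT replicate 3. Part of Fabp3 overlaps Zcchc17 on the opposite strand, and the strand setting of the counting is not given in the sources used here.

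Fabp4 was the scarcest of the 4, at 9.0, 8.10 and 5.99 CPM in the mice labelled Bmal1-/- and 6.40, 8.20, 15.1 and 8.85 CPM in WT. The genotypes overlapped, and WT replicate 3 alone stood well above the rest. The log2 fold change was -0.33 (SE 0.30) and came to -0.02 without that library, so 1 mouse carried nearly all of it.

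**Figure D1:**
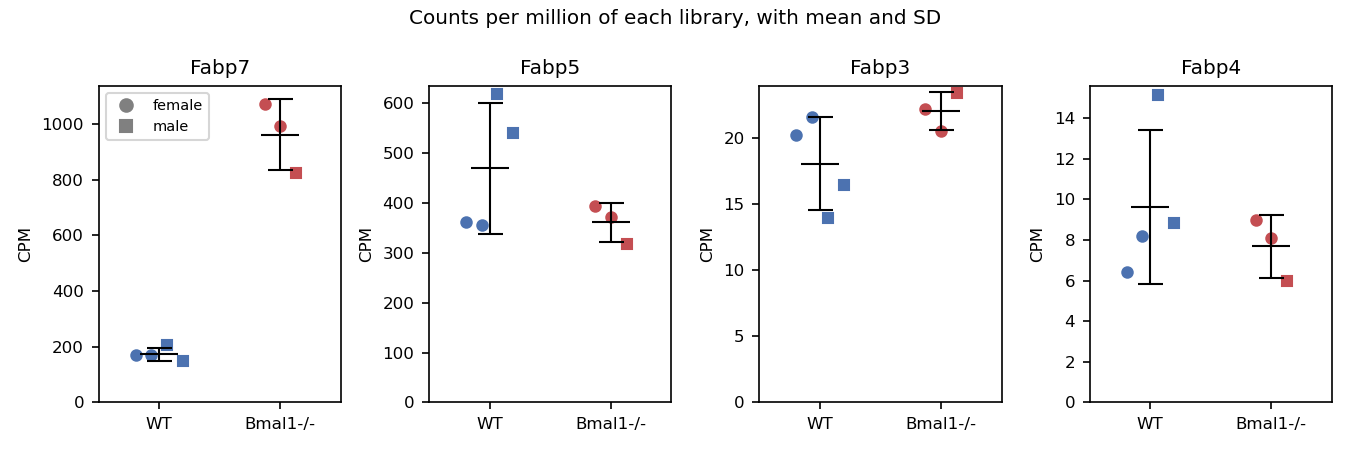
Level of Fabp7, Fabp5, Fabp3 and Fabp4 (CPM, axes from 0) in each WT and Bmal1-/- library, with circles for females, squares for males and black bars for the mean and SD. The 3 Fabp7 values labelled Bmal1-/- (822 to 1071) sit far above the 4 WT values (150.2 to 204.9), while the groups overlap for the other 3 genes.

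**Figure D2:**
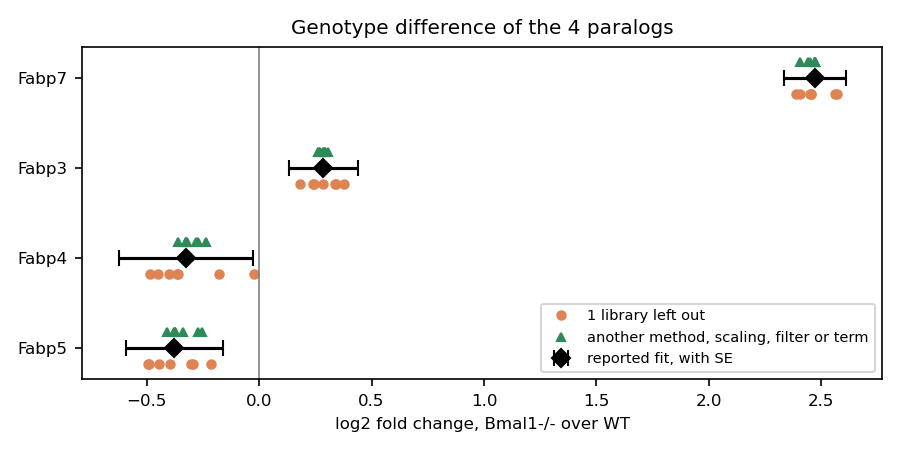
Fitted log2 fold change (Bmal1-/- over WT) of the 4 paralogs, with diamonds and bars for the reported fit and its SE, circles for fits with 1 library left out and triangles for another method, scaling, filter or model term. Fabp7 stays between 2.39 and 2.57, and the other 3 genes lie within 0.5 of 0, with Fabp4 reaching -0.02 without WT replicate 3.

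Other relatives were at or near 0. Fabp2, the intestinal type, Fabp6, the ileal bile acid binding type, and Fabp9, the testis type, had no count in any of the 7 libraries. Fabp1, the liver type, had 1 count in 1 library, and Fabp12 1 count in each of 2. Pmp2, a FABP of peripheral myelin, had 0 to 7 counts per library. These genes did not pass the low-count filter.

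To compare the paralogs with each other, CPM was divided by transcript length. On the length of the principal coding transcript, which runs from 804 bases for Fabp7 to 987 for Fabp5, Fabp7 stood at 1197 ± 158 CPM per kb (SD, n = 3) in the mice labelled Bmal1-/- and 216 ± 28.4 CPM per kb (SD, n = 4) among the WT. Fabp5 stood at 366 ± 40.1 and 475 ± 133 CPM per kb. On this scale Fabp5 was the highest of the 4 in every WT library and Fabp7 in every mouse labelled Bmal1-/-. The ratio of Fabp7 to Fabp5 was 3.18 to 3.34 in the latter and 0.342 to 0.582 in WT.

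Fabp3 and Fabp4 were minor on the same scale. Fabp3 stood at 26.8 ± 1.74 CPM per kb in the mice labelled Bmal1-/- and 22.0 ± 4.27 in WT. Fabp4 stood at 8.59 ± 1.72 and 10.8 ± 4.24 CPM per kb. Fabp3 was above Fabp4 by 2.03 to 4.25 times in 6 libraries, but in WT replicate 3 the ratio was 1.00, so their order there cannot be read.

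The place of Fabp5 depends on the gene length used. The length fixed for this comparison was the union of all exons, which for Fabp5 (3567 bases) and Fabp4 (4489 bases) includes an intron-retaining transcript several times longer than the coding one. On that length Fabp7 was above Fabp5 in 5 of 7 libraries, including WT replicates 1 and 2. On the principal coding transcript, chosen after the data were seen, it was so in 3 of 7.

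The summed level of the 4 genes was 1379 to 1768 CPM per kb of coding transcript in the mice labelled Bmal1-/- and 606 to 916 in WT. Without Fabp7 the sum of the other 3 was 356 to 436 and 396 to 661 CPM per kb, and these ranges overlapped. Fabp7 made up 74.8% ± 0.615 (SD, n = 3) of the summed level in the mice labelled Bmal1-/- and 30.4% ± 5.08 (SD, n = 4) among the WT. The Fabp5 share was 22.9% ± 0.364 and 64.9% ± 6.03. The composition was nearly the same in the 3 mice labelled Bmal1-/-, although their summed levels differed. Among all 21939 genes with a length, ranked by CPM per kb of exon union, Fabp7 held ranks 18 to 21 in the mice labelled Bmal1-/- and 194 to 261 in WT.

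**Figure D3:**
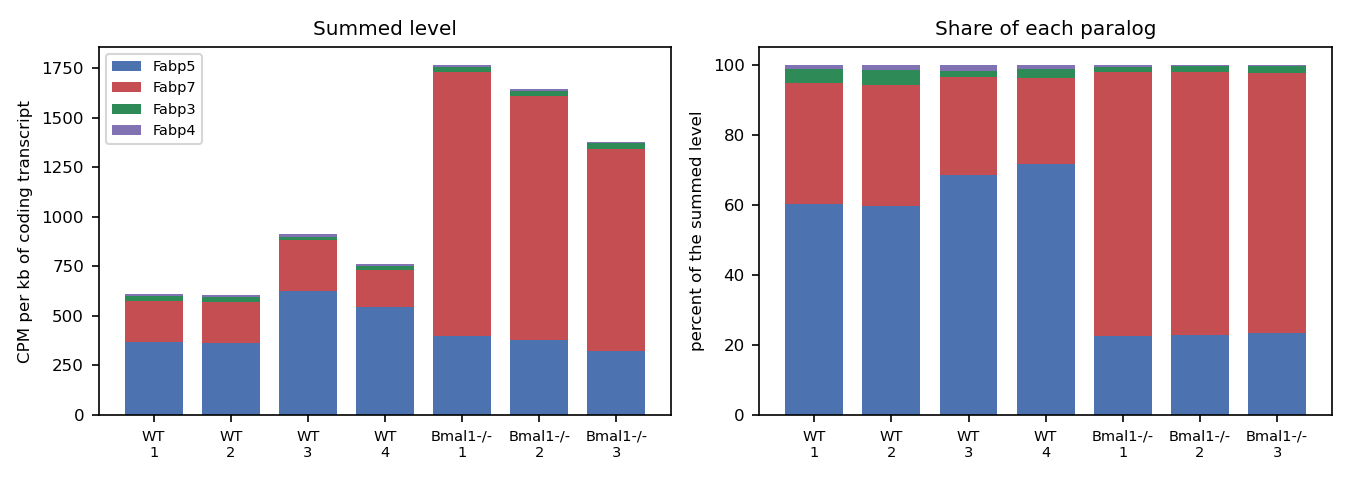
Left, level of Fabp5, Fabp7, Fabp3 and Fabp4 (CPM per kb of principal coding transcript) stacked for each library, and right, the percent of the summed level that each gene makes up. Fabp7 forms 74.2% to 75.3% of the sum in the 3 Bmal1-/- libraries and 24.5% to 34.6% in the 4 WT libraries, where Fabp5 is the largest part.

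Because bulk RNA cannot separate fewer cells of a type from less RNA per cell, the members are set beside markers of the cells known to use them. The 13 astrocyte markers summed to 18664 to 21379 CPM in the mice labelled Bmal1-/- and 12796 to 17660 CPM in WT, which did not overlap. Most of this sum was Gfap, named after its values were seen (10021 to 12657 CPM, against 7457 to 10000.5 CPM in WT). Ratios to the sum are thus mainly ratios to this 1 gene. By edgeR, 0 of the 13 were called, 6 had an unadjusted p under 0.05, 8 had a higher and 5 a lower point estimate, and their median log2 fold change was 0.32, beside -0.01 over all genes. Of all tested genes 20.9% had an unadjusted p under 0.05, the share against which such counts stand here and further on. DESeq2 called 3 of the 13, where it called 9.61% of all genes, and limma-voom 0, where it called 1.31%. Aqp4, the astrocyte water channel, had 0.43 (adjusted p = 0.259, edgeR), while Aldh1l1, a folate enzyme that marks astrocytes, had -0.47 (adjusted p = 0.133, edgeR). Fabp7 amounted to 44.1 to 50.1 CPM per 1000 CPM of the astrocyte markers in the mice labelled Bmal1-/- and 8.50 to 16.0 in WT. The ratio of these means was 4.11, so the difference in Fabp7 was larger than that in the marker sum.

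The 12 markers of radial glia and progenitors, the other cells that Fabp7 marks, were together lower, at 2160 to 2992 CPM against 3072 to 4622 CPM in WT. Most of this sum was Vim, named after its values were seen (1660 to 2364 CPM, against 2305 to 3551 CPM in WT). By edgeR, 2 of the 12 were called lower, Hes1, a Notch target (-1.16, SE 0.20, adjusted p = 0.0419, edgeR), and Hopx, a homeodomain protein of stem cells (-0.56, SE 0.07, adjusted p = 0.0121, edgeR). Of the 12, 7 had a lower and 5 a higher point estimate, and 7 had an unadjusted p under 0.05. DESeq2 called 4 lower and 2 higher, where it called 5.81% of all genes lower and 3.8% higher. Those called higher were Msi1 and Pax6, named after their values were seen. By limma-voom Hes1 and Hopx were called lower. The intermediate filament gene Nes had -0.87 (adjusted p = 0.131, edgeR) and the transcription factor gene Sox2 0.05 (adjusted p = 0.806, edgeR). Per 1000 CPM of these markers, Fabp7 stood at 340 to 381 CPM in the mice labelled Bmal1-/- and 44.3 to 55.0 in WT. The part of changes in cell make-up in the Fabp7 difference was not tested.

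**Figure D4:**
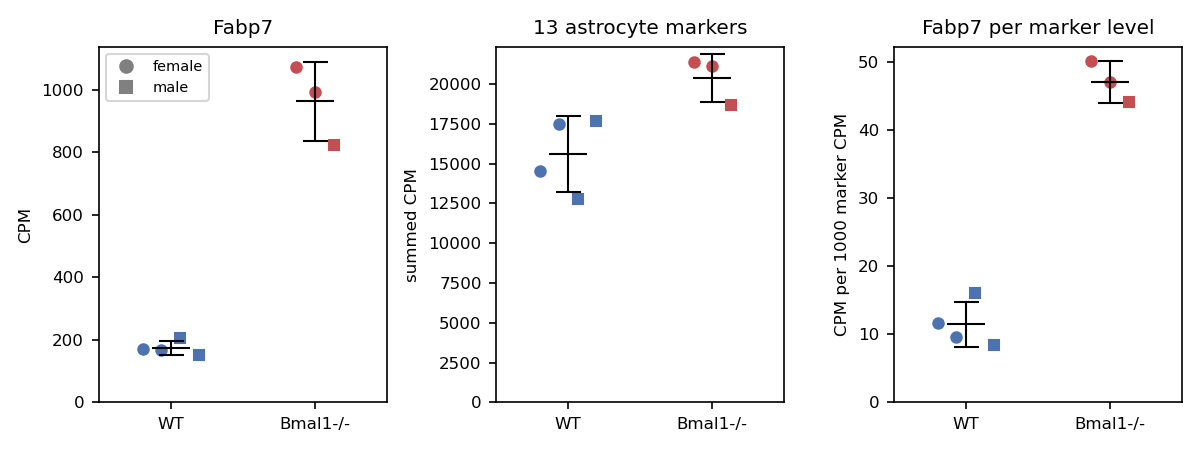
Fabp7 (CPM), the summed level of 13 astrocyte markers (CPM) and Fabp7 per 1000 CPM of these markers in each library, with circles for females, squares for males and black bars for the mean and SD. The marker sum, most of it Gfap, is also higher in Bmal1-/- (18664 to 21379, against 12796 to 17660). Fabp7 per marker level is 44.1 to 50.1, against 8.50 to 16.0. The family was chosen on the Fabp7 difference, and the part of cell make-up in it was not tested.

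Fabp5 and Fabp4 were set beside macrophages and endothelium. Of the 12 macrophage markers 0 were called by edgeR, 3 had an unadjusted p under 0.05, and their sum was 7991 to 9443 CPM in the mice labelled Bmal1-/- and 6800 to 15261 CPM in WT, with the top value in WT replicate 3, where Fabp5 and Fabp4 were also highest. DESeq2 called 2 of these markers and limma-voom 0. The lysosomal protein gene Cd68 had -0.24 (adjusted p = 0.484, edgeR) and the lysozyme gene Lyz2 -0.20 (adjusted p = 0.665, edgeR). The largest part of the macrophage marker sum was Spp1, named after its values were seen (4545 to 5368 CPM, against 3235 to 8486 CPM in WT). Per 1000 CPM of macrophage markers, Fabp5 stood at 39.7 to 41.7 CPM in the mice labelled Bmal1-/- and 40.6 to 53.7 in WT, and Fabp4 at 0.749 to 0.953 and 0.746 to 1.21, so the genotypes overlapped in both. The 8 microglia markers likewise had 0 calls by edgeR, with 1 at an unadjusted p under 0.05, and 0 by DESeq2 or limma-voom.

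Of the 12 endothelial markers 1 was called lower by edgeR, the junction protein gene Cdh5 (-0.85, SE 0.15, adjusted p = 0.0466, edgeR), while Pecam1, an endothelial adhesion molecule, had -0.45 (adjusted p = 0.324, edgeR). DESeq2 called 3 lower and limma-voom 0, and 6 had an unadjusted p under 0.05. Of the 12, 6 did not overlap between the genotypes, all of them lower, where 26.9% of all tested genes did not overlap. In either direction, 7 of 13 astrocyte, 7 of 12 radial glia and progenitor, 6 of 10 neuron, 3 of 12 macrophage and 0 of 8 microglia markers did not overlap. The endothelial sum was 536 to 611 CPM in the mice labelled Bmal1-/- and 624 to 989 CPM in WT. Per 1000 CPM of the endothelial markers, Fabp4 stood at 10.7 to 15.1 CPM and 9.38 to 15.3 CPM, and the ratio of the means was 1.05. Of the 8 fat cell markers, the adipokine genes Lep, Adipoq and Retn and the fat droplet genes Plin1 and Cidec, 5 in all, had at most 14 counts in a library and did not pass the low-count filter, and Lep had no count. The other 3 passed it. Lipe, the hormone-sensitive lipase gene, stood at 23.7 to 29.3 CPM, the adipsin gene Cfd at 0.202 to 1.72 CPM and the adrenergic receptor gene Adrb3 at 0.463 to 0.939 CPM. The genotypes overlapped in these 3, of which 0 were called by edgeR, DESeq2 or limma-voom and 0 had an unadjusted p under 0.05.

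For Fabp3 the cells considered were neurons and muscle. All 10 neuron markers had higher point estimates in the mice labelled Bmal1-/-, but 0 were called by edgeR, 1 by DESeq2 and 0 by limma-voom, and 3 had an unadjusted p under 0.05. Their sum was 5380 to 6588 CPM there and 2090 to 5137 CPM in WT, lowest in WT replicate 3, the library with the lowest Fabp3. Per 1000 CPM of neuron markers, Fabp3 stood at 3.55 to 4.09 CPM in the mice labelled Bmal1-/- and 4.08 to 6.67 in WT. Most skeletal muscle markers went the other way from Fabp3, and their median log2 fold change was -3.30. By edgeR 9 of 12 were called lower, where 0.915% of all genes were. Of the 12, 11 had a lower and 1 a higher point estimate. The latter was Pvalb, named after its values were seen (0.38, SE 0.12, adjusted p = 0.165, edgeR). Ckm, the muscle creatine kinase gene, had -3.57 (SE 0.50, adjusted p = 0.0193, edgeR) and Acta1, skeletal actin, -3.25 (SE 0.36, adjusted p = 0.00851, edgeR). Of the 6 markers of heart and slow muscle 0 were called by edgeR, DESeq2 or limma-voom and 0 had an unadjusted p under 0.05. The part of any of these cell types in the member values was not tested.

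Sex was not used in choosing the genes and could be tested. Adjusted for genotype, the male minus female log2 difference was -0.09 for Fabp7 (SE 0.15), -0.22 for Fabp3 (SE 0.14), 0.25 for Fabp4 (SE 0.32) and 0.32 for Fabp5 (SE 0.21). By edgeR, DESeq2 and limma-voom 0 of the 4 were called, in edgeR each with an adjusted p = 0.997, and 0 had an unadjusted p under 0.05. Over all tested genes 0.0191% were called and 2.58% had an unadjusted p under 0.05. With these few mice, such values do not show that the sexes were alike.

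The genotype difference of Fabp5 had opposite signs in females and males. Both females labelled Bmal1-/- (394 and 372 CPM) lay narrowly above both WT females (362 and 356 CPM), a log2 ratio of means of 0.09. The single male labelled Bmal1-/- (317 CPM) lay below both WT males (619 and 539 CPM), a log2 ratio of -0.87. The difference between these genotype effects, tested as a genotype by sex term in edgeR, was -0.96 (SE 0.17, unadjusted p = 0.00175, adjusted p = 0.400), so it failed the correction. By DESeq2 its adjusted p was 0.000612 at the same size. In both tools the p rests on the spread of the other arms, since the male labelled Bmal1-/- is a single library with no spread of its own.

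The same term was 0.59 for Fabp3 (SE 0.18, unadjusted p = 0.0200 by edgeR) and -1.23 for Fabp4 (SE 0.46, unadjusted p = 0.0384 by edgeR), both with adjusted p = 0.400. For Fabp7 it was -0.40 (SE 0.26, adjusted p = 0.451, edgeR), with a log2 ratio of 2.61 in females and 2.21 in the males. An unadjusted p under 0.05 was thus found for 3 of the 4 members, where 12.3% of tested genes had one and 0% were called by edgeR. DESeq2 called 130 genes. WT replicate 3, the library that stands apart, is 1 of the 2 WT males. Without it the term was -0.86 for Fabp5 (SE 0.10), 0.48 for Fabp3 (SE 0.13), -0.79 for Fabp4 (SE 0.27) and -0.16 for Fabp7 (SE 0.11), the same signs as with it. In edgeR, with all libraries, the same term was negative for every macrophage marker (-1.47 to -0.58) and positive for every neuron marker (0.53 to 1.59). Sex and the single male labelled Bmal1-/- cannot be told apart in this term.

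The members also varied together within genotypes. After subtraction of genotype means from log2 CPM, over the 7 libraries, Pearson's r was -0.95 between Fabp3 and Fabp5, 0.86 between Fabp4 and Fabp5 and -0.82 between Fabp3 and Fabp4. Fabp7 was nearest to Fabp4 (0.77). These libraries share depth, tissue make-up and WT replicate 3, and the values are descriptions without a test. By the same measure, among tested genes of at least 10 CPM, the genes most like Fabp7 were Cttn, Gpn1, Tinagl1, Ubxn4 and Fam107b (r of 0.99 to 1.00), whose own log2 fold changes were within -0.25 to 0.01. Those most like Fabp5 were Gpr157, Zfp513, Eif3i, Aif1, which marks microglia and macrophages, and Gfer (0.99). Lgr4, Ecel1, Ddx6, Stmn3 and Slc39a10 were most like Fabp3 (0.99 to 1.00), and Pik3r3, Mrpl40, Commd1, Bud23 and Ppp1cc most like Fabp4 (0.99 to 1.00). The same 7 libraries gave all of these values.

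To see whether genes around the FABPs moved with Fabp7, 122 genes were set out in 9 lists, 8 of fatty acid handling and 1 of the REV-ERB and ROR receptors. Of the 99 fatty acid genes tested, edgeR called 2 higher and 1 lower, 3.03% where 1.57% of all genes were called, and their median log2 fold change was -0.01, the same as over all genes. With the receptors it called 2 higher and 3 lower of 104, or 4.81%. Both genes called higher act on acyl-CoA, the activated form of the fatty acids that FABPs carry. Acsl3, which makes acyl-CoA at lipid droplets and the endoplasmic reticulum, was counted at 317, 322 and 310 CPM in the mice labelled Bmal1-/- and at 154, 175, 119 and 177 CPM in WT, without overlap (1.02, SE 0.14, adjusted p = 0.0183, edgeR). Dbi, the acyl-CoA binding protein, was counted at 658, 668 and 613 CPM and at 374, 391, 462 and 403 CPM, also without overlap (0.67, SE 0.09, adjusted p = 0.0203, edgeR). With 1 library left out, Acsl3 kept its call in 3 of 7 fits and Dbi in 1 of 7.

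Among the REV-ERB and ROR genes, both repressors fell. Nr1d1 was counted at 5.31, 5.41 and 7.28 CPM in the mice labelled Bmal1-/- and at 36.4, 36.8, 29.2 and 34.4 CPM in WT, without overlap (-2.51, SE 0.15, adjusted p = 0.000456, edgeR). Nr1d2 had -2.68 (SE 0.16, adjusted p = 0.000456, edgeR), from 9.63 to 13.1 CPM against 62.0 to 85.2 CPM.

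In mitochondrial oxidation 1 of 21 genes was called, Acaa2, the last enzyme of a beta-oxidation cycle, which was lower at 20.5 to 22.4 CPM against 32.7 to 34.6 CPM (-0.66, SE 0.06, adjusted p = 0.0043, edgeR). Acaa2, Nr1d1 and Nr1d2 kept their calls in all 7 fits with 1 library left out.

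The other 6 lists held 3, 12, 16, 16, 10 and 8 tested genes. In them edgeR called 0 genes, where it called 1.57% of all genes. DESeq2 called 9, where it called 9.61% of all genes. With limma-voom 1 was called, the droplet fusion gene Cidea, where it called 1.31% of all genes. Among relatives that bind retinoids, Crabp2, a retinoic acid carrier, had -0.59 (SE 1.01). Of 12 uptake genes 2 had an unadjusted p under 0.05 by edgeR. Gpihbp1, the capillary anchor of lipoprotein lipase, had few counts, 2, 7 and 0 in the mice labelled Bmal1-/- and 11, 10, 38 and 6 in WT (-2.44, SE 0.96). The other was the fatty acid transporter gene Slc27a2, named after its values were seen (0.73, SE 0.27). The scavenger receptor gene Cd36 had -0.80 (SE 0.35, unadjusted p = 0.0535 by edgeR).

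Of 16 synthesis genes 7 had an unadjusted p under 0.05 by edgeR, among them the desaturase gene Fads2 (-0.53, SE 0.21), while the elongase gene Elovl4 had 0.47 (SE 0.23, unadjusted p = 0.0726 by edgeR). Of 16 lipid droplet genes 5 did, among them the droplet coat gene Plin4 (1.37, SE 0.45) and Cidea (0.66, SE 0.12). Of 10 receptor genes 2 did, the coactivator gene Ppargc1b (0.57, SE 0.22) and the receptor gene Ppard (0.20, SE 0.07), the latter named after its values were seen. Ppara, another fatty acid receptor, had -0.56 (SE 0.29, unadjusted p = 0.0987 by edgeR). Of 8 PPAR target genes 1 did, the pyruvate dehydrogenase kinase gene Pdk4 (0.35, SE 0.10), also named after its values were seen. The mitochondrial carriers Ucp3 and Ucp2 had -0.60 (SE 0.31, unadjusted p = 0.0873 by edgeR) and 0.39 (SE 0.21, unadjusted p = 0.0993 by edgeR).

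**Figure D5:**
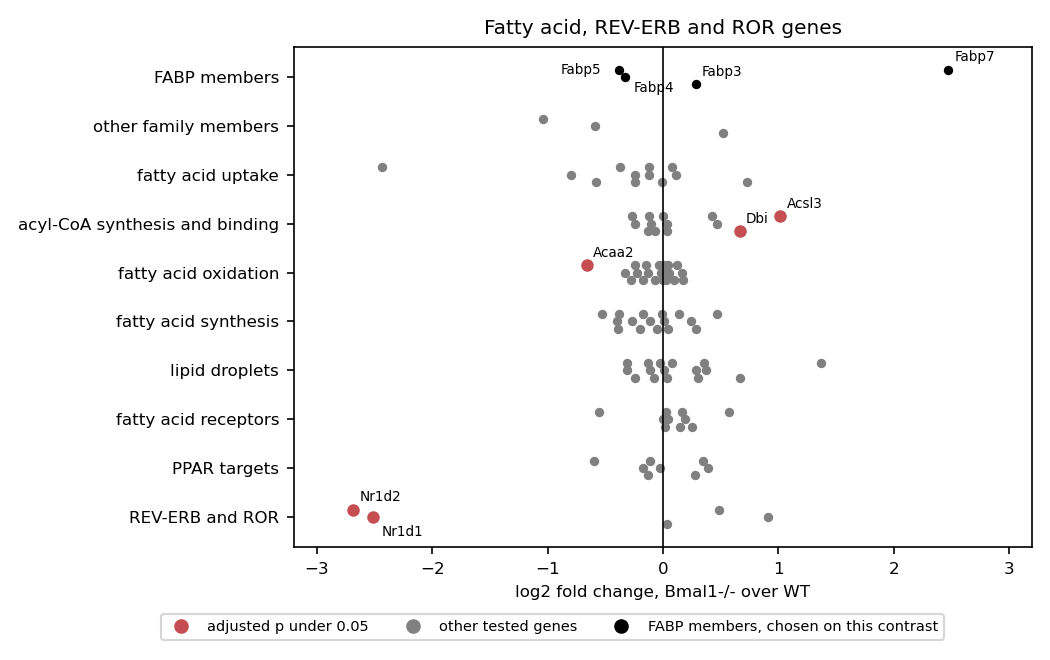
Log2 fold change (Bmal1-/- over WT) of each tested gene in the FABP group (black, chosen on this contrast) and in 9 lists of fatty acid, REV-ERB and ROR genes, with red for an adjusted p under 0.05 by edgeR and grey for the rest. Of the list genes Acsl3 and Dbi are called higher and Acaa2, Nr1d1 and Nr1d2 lower, and Fabp7 (2.47) lies farther right than all of them.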

How the data were processed

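RNASeq was made from 7 injured spinal cords, 1 library per mouse. From poly-A RNA the authors made strand-specific libraries, mapped the reads with Tophat2 (GRCm38) and summed them over genes with HTSeq 0.10.0. The deposited values are raw counts. The annotation release and strand setting of the counting are not given in the sources used here.

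Genes were filtered with filterByExpr on genotype, TMM normalized and tested with edgeR 4.0.16 (limma 3.58.1, R 4.3.3), with genotype as the only term, then with sex, or with genotype, sex and their interaction. The SE beside an edgeR log2 value is its absolute value divided by the square root of the quasi-likelihood F statistic. It therefore follows from that test and is not a separate estimate of spread. edgeR was tested on simulated data with 200 changed genes. The members and gene lists were chosen with earlier results of these data known. Genes named are the members and their relatives, Arntl, Nr1d1, Nr1d2, called list genes (or the 2 with the largest difference where none was called), the first 2 genes of marker lists used and the 5 genes most like each member. Of the other marker lists, those of ependymal cells, oligodendrocytes, OPCs, fibroblasts and Schwann cells held 0 calls by edgeR and limma-voom and 0 to 4 by DESeq2 (1 to 5 at an unadjusted p under 0.05, OPCs 0), and that of red cells 1, Hbb-bt, which was lower (6 by DESeq2, 0 by limma-voom). Hes1, Hopx and genes said to be named after their values were seen stand beyond that rule, and some genes of the lists are not reported singly here.

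Positions, transcripts and lengths came from GENCODE vM21, promoters from RefSeq. Coding sequences were aligned with MAFFT v7.526. Alternatives were each library left out, a replicate block, a sex term, DESeq2 1.42.0, limma-voom, other scalings and filters, and other gene lengths. p-values reflect the spread between these mice.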

Additional observations from a re-analysis of the deposited data

Results flagged for a closer look

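Fabp5 was noted because its genotype difference had opposite directions in the sexes: every female labelled Bmal1-/- lay above every WT female, and the male labelled Bmal1-/- below every WT male. The difference in males minus that in females was -0.96 on the log2 scale, which failed the correction in edgeR (adjusted p = 0.400), and over the alternatives its adjusted p ran from 0.000612 to 0.670. Without WT replicate 3 it was -0.86 (adjusted p = 0.0709), and its lowest p with a library left out came without WT replicate 4 (adjusted p = 0.00234), where each male arm is 1 library assumed to vary like the females and 5709 of 15676 genes were called. It could not be fitted without replicate 3 of the libraries labelled Bmal1-/-, the only male. A term of this sign was not particular to Fabp5, since every macrophage marker also had a negative one (-1.47 to -0.58 in edgeR).

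WT replicate 3 stood far from the other WT libraries in the summed level of the radial glia and progenitor markers (4622 CPM, against 3072 to 3225) and of the endothelial markers (989 CPM, against 624 to 683). Of 19 values examined in this way 2 stood out, and chance marks about 1 in 20. None of the 4 members stood out by that measure, although WT replicate 3 had the highest Fabp7, Fabp5 and Fabp4 and the lowest Fabp3 of the WT libraries.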

How the results depend on the processing

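The Fabp7 genotype log2 fold change, a description, was 2.39 to 2.57 over all fits. With the replicate block edgeR called 0 genes, so 0 higher and 0 lower among the 104 listed genes (1590 of all genes had an unadjusted p under 0.05). The replicate numbers share only a number (correlations of same-numbered libraries -0.174, 0.183 and -0.295). Listed genes called higher were 10 by DESeq2, where it called 3.8% of all genes higher, and 0 to 6 with a library left out. Those called lower were 11 by DESeq2, where it called 5.81% lower, and 3 to 9 with a library left out, the highest counts coming without WT replicate 3. Fabp7 was above Fabp5 per length in 3 libraries on the principal coding transcript, 7 on the longest transcript and 4 to 5 with a library left out. The sex difference turned for Fabp7 without the only male labelled Bmal1-/- (0.0813; range -0.25 to 0.0813) and for Fabp4 without WT replicate 3 (-0.0992; range -0.0992 to 0.73). The genotype by sex term passed for Fabp5 by DESeq2 (-0.96). It passed for all 4 members without WT replicate 4, which left each male arm with 1 library. Its ranges with a library left out were 0.48 to 0.72 for Fabp3, -1.56 to -0.79 for Fabp4, -1.06 to -0.86 for Fabp5 and -0.60 to -0.16 for Fabp7. Sex with the replicate block could not be fitted. Of the other values, 156 were taken as the same, by a rule that differed between results. A genotype fold change had to stay within the pooled SD of that gene between mice, and a count near its main value. A sex or genotype by sex term had to keep its direction and side of the threshold. Fabp7 with the replicate block (2.41) is among the 156, although it was not called there. Depth limits the relatives and list genes with few counts, such as Gpihbp1 (0 to 38 counts). Fabp4 had the fewest counts of the 4 members (236 to 606).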
